A study of Mus musculus with 6 samples.

Results

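The 39 genes described here are ribosome biogenesis factors. Most encode proteins that modify, cut and assemble ribosomal RNA (rRNA) before a ribosome is finished, and Myc encodes a transcription factor that acts on many of these genes. They were taken by name from the platform annotation, with 1 probe set per gene. Of the 39, 36 were measured by a probe set with a single gene name, out of 30701 named genes and 65956 probe sets on the array. The other 3, Nop56, Gnl3 and Ebna1bp2, are listed on probe sets that also carry a second gene, so their values are not given by name. The samples were livers of 6 male mice aged 8 weeks, with 1 Affymetrix array per mouse. The HFD-inulin group held 3 offspring of mothers treated with inulin, a fermentable plant fibre. The HFD group held 3 offspring of mothers on a high-fat diet (HFD). The first group's titles name HFD too, so whether its mothers ate the same fat-rich diet with inulin added is left as the labels have it. The labels used here give no strain, inulin dose, treatment window, diet of the offspring or litter. Whether mice of a group share a mother is therefore not known here, and the p-values measure only how these 6 arrays vary.

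Ribosome production begins in the nucleolus, where RNA polymerase I makes a long precursor rRNA. Small nucleolar ribonucleoproteins (snoRNPs) of the box C/D class guide methylation of that precursor, and those of the box H/ACA class guide pseudouridylation. The small subunit processome folds and cuts the part that becomes the small subunit, and other factors, such as the PeBoW complex, build the large subunit. Hepatocytes make large amounts of secreted protein, and liver expression of these genes is known to follow feeding and growth signals.

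Each value is the authors' deposited signal of an array, read here as log2, so a difference of 1 is a doubling. A difference is HFD-inulin minus HFD, tested with limma over all 65956 probe sets, with Benjamini-Hochberg adjusted p-values and a threshold of 0.05. The array medians ran from 1.17 to 1.26. All 36 factors lay above the median of every array, and 34 lay above the 75th percentile of every array. Probe sets differ in their probes, so signals are not compared between genes. The arrays did not separate by group. The first principal component (53.1% of the variance) and probe sets numbered on chromosome Y that share one profile divided the arrays in another way. HFD-inulin arrays 1 and 2 fell with HFD array 1, called the low trio here after its chromosome Y signal, and HFD-inulin array 3 fell with HFD arrays 2 and 3, called the high trio. Group differences are therefore also given within each trio.

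Of the 36 factors, 35 had a higher mean in HFD-inulin livers and 1, Nob1, a lower one, where 43.5% of all probe sets were higher. The differences were small, with a median of 0.16 on the log2 scale, a ratio of 1.11, and a range of -0.01 to 0.43. The median was -0.02 over all probe sets and 0.02 over the 8628 protein-coding genes at least as bright as the dimmest factor, of which 55.8% had a higher mean in HFD-inulin livers. No factor passed the adjusted threshold (0 of 36, with adjusted p from 0.902 to 0.991 in limma). Over all probe sets 0% passed. At an unadjusted p under 0.05 there were 5 factors, all higher in HFD-inulin livers, or 13.9% of them, against 2.52% of all probe sets and 4.83% of the 8628 protein-coding genes in that direction. The factors share the same 6 arrays, so these 5 are not separate observations. In bulk liver, a change in the share of a cell type and a change in RNA per cell cannot be told apart.

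**Figure D1:**
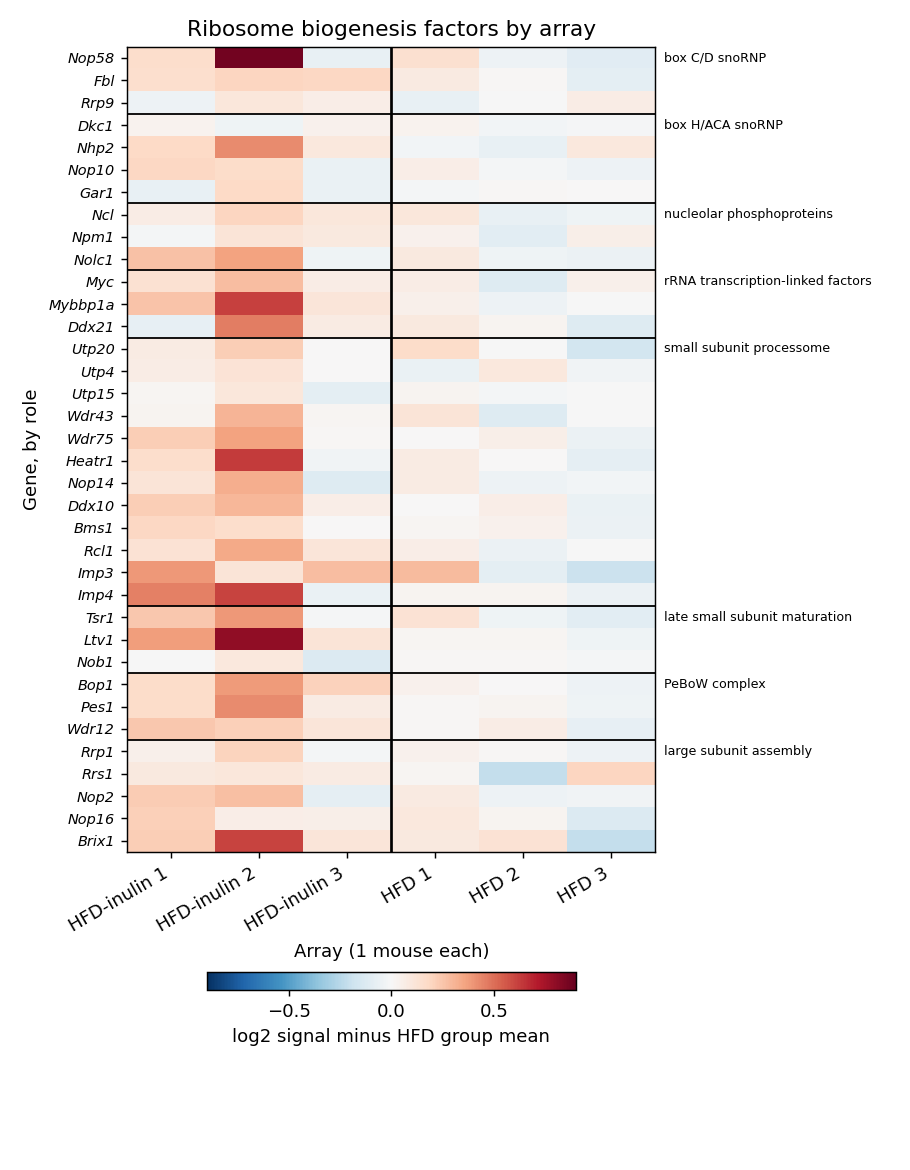
Each row is a gene, grouped by role, and each column an array, and the colour is the deviation from that gene's HFD group mean (log2). HFD-inulin array 2 was the highest array for 29 of 36 genes (80.6%), against 32.5% of the 8628 protein-coding genes. HFD-inulin array 3 was close to the HFD arrays.

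The shift was uneven across the HFD-inulin mice. The mean over the 36 factors of the deviation from the HFD group mean (log2) was 0.15, 0.31 and 0.04 in HFD-inulin mice 1 to 3, against 0.05, -0.01 and -0.04 in HFD mice 1 to 3. HFD-inulin array 3 thus lay inside the range of the HFD arrays. HFD-inulin array 2 was above all 3 HFD arrays for 32 factors, HFD-inulin array 1 for 25 and HFD-inulin array 3 for 10. Among the 8628 protein-coding genes those shares were 44.6%, 41.1% and 19.7%. HFD-inulin array 3 was below all 3 HFD arrays for 7 factors. It was the lowest of the 6 arrays for 6 factors (16.7%), against 19.1% of the 8628 protein-coding genes. The standard deviation was larger in HFD-inulin livers for 28 of 36 factors, with a median of 0.133 in HFD-inulin and 0.0698 in HFD livers. The same comparison over all genes is not given here. Without HFD-inulin array 2 the median difference was 0.09 and 33 factors were higher. The number with an unadjusted p under 0.05 and a higher mean was then 2, where 2.05% of all probe sets met the same criterion. Without HFD-inulin array 3 it was 15 factors, and the share of all probe sets was also larger, at 5.56%. Without HFD-inulin array 1 it was 1 factor, against 1.89% of all probe sets. It was 3 factors without HFD array 1 (2.55% of all probe sets), 2 with HFD array 2 left out (1.13%) and 0 with HFD array 3 left out (1.36%).

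**Figure D2:**
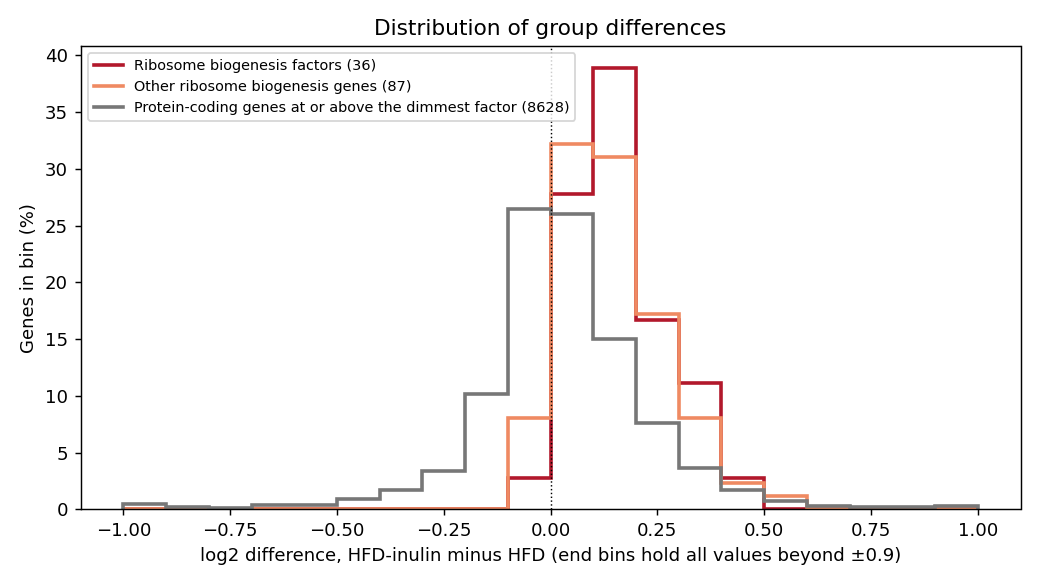
The horizontal axis is the log2 difference between HFD-inulin and HFD livers in bins, and the vertical axis the share of genes per bin. The 36 factors and the 87 other ribosome biogenesis genes lie mostly above 0, while the 8628 protein-coding genes have a median of 0.02.

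The groups did not overlap for 7 of the 36 factors (19.4%), all higher in HFD-inulin livers, where 4.32% of all probe sets and 7.55% of the 8628 protein-coding genes were apart in that direction. No factor was apart with lower values in HFD-inulin livers, against 6.02% of all probe sets. The 7 were Bop1, Pes1, Wdr12, Ltv1, Mybbp1a, Fbl and Rcl1. In 3 more, Nhp2, Ddx10 and Myc, the lowest HFD-inulin array was within 0.01 of the highest HFD array.

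The sequences below are shown because they belong to the 4 factors with the largest differences among those whose promoter window holds the letters CACGTG, the core of the E-box that Myc and its partner Max recognise. Each runs 5′ to 3′ from 250 bases before to 50 bases after the annotated start, from RefSeq on GRCm38.p6, with CACGTG in capitals.
Ltv1 (chr10:13193088-13193387, minus strand): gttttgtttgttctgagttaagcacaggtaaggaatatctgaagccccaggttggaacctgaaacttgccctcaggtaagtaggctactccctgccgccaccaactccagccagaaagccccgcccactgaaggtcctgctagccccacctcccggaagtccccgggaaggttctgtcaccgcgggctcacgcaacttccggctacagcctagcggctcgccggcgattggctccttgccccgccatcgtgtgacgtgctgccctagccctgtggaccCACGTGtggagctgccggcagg
Imp4 (chr1:34439579-34439878, plus strand): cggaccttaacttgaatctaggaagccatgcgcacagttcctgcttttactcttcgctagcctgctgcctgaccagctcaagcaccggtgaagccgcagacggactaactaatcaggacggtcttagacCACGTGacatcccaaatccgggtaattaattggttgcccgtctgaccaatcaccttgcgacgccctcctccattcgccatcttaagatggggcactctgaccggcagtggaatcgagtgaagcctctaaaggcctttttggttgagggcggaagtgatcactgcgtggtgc
Mybbp1a (chr11:72441077-72441376, plus strand): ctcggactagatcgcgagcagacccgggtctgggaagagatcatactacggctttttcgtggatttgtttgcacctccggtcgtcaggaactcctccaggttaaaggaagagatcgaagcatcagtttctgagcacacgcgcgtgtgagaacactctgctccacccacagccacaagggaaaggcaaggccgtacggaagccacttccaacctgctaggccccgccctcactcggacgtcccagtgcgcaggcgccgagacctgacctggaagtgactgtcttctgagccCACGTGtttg
Pes1 (chr11:3963725-3964024, plus strand): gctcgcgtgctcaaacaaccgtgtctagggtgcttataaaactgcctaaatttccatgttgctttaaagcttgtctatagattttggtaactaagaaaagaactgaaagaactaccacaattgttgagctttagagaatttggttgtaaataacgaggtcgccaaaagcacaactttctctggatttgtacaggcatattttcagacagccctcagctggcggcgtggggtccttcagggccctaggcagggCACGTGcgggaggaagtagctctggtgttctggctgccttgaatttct
The letters begin 121 bases before the start in Imp4 and 28, 40 and 2 bases after it in Ltv1, Mybbp1a and Pes1. Promoter windows were found for 34 of the 39 factors, and 9 of the 34 (26.5%) held CACGTG, which reads the same on both strands. The others were Nop2, Tsr1, Utp20, Utp4 and Wdr43. The letters stood in 8.91% of 17492 protein-coding genes with a window, in 12.3% of those at least as bright as the dimmest factor, and in 7.15% of all 32851 windows. The 9 with the letters, all measured, had a median difference of 0.21 (range 0.06 to 0.43), and the 22 measured factors without them 0.14 (range -0.01 to 0.32). These ranges overlap, and the match describes the letters in this window only.

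The PeBoW complex, which processes the precursor of the large subunit rRNAs, was the group of factors in which every measured member separated the groups. Bop1, its scaffold, measured 4.25, 4.47 and 4.29 in HFD-inulin mice 1 to 3, against 4.12, 4.09 and 4.05 in HFD mice 1 to 3. All HFD-inulin arrays lay above all HFD arrays, with a difference of 0.25 (SE 0.08), the smallest unadjusted p of the 36 (0.0151) and an adjusted p of 0.902 in limma. Wdr12 measured 3.05, 3.02 and 2.92 in HFD-inulin arrays and 2.82, 2.88 and 2.74 in HFD arrays. Its difference of 0.19 (SE 0.07) came with HFD-inulin array 1, not 2, on top. Pes1, the pescadillo homolog, measured 4.96, 5.22 and 4.87 in HFD-inulin arrays and 4.81, 4.82 and 4.76 in HFD arrays, where the HFD values were tight (SD 0.03) and the HFD-inulin values were not (SD 0.18). The differences in the low trio and high trio were 0.24 and 0.23 for Bop1, 0.22 and 0.11 for Wdr12, and 0.28 and 0.08 for Pes1.

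**Figure D3:**
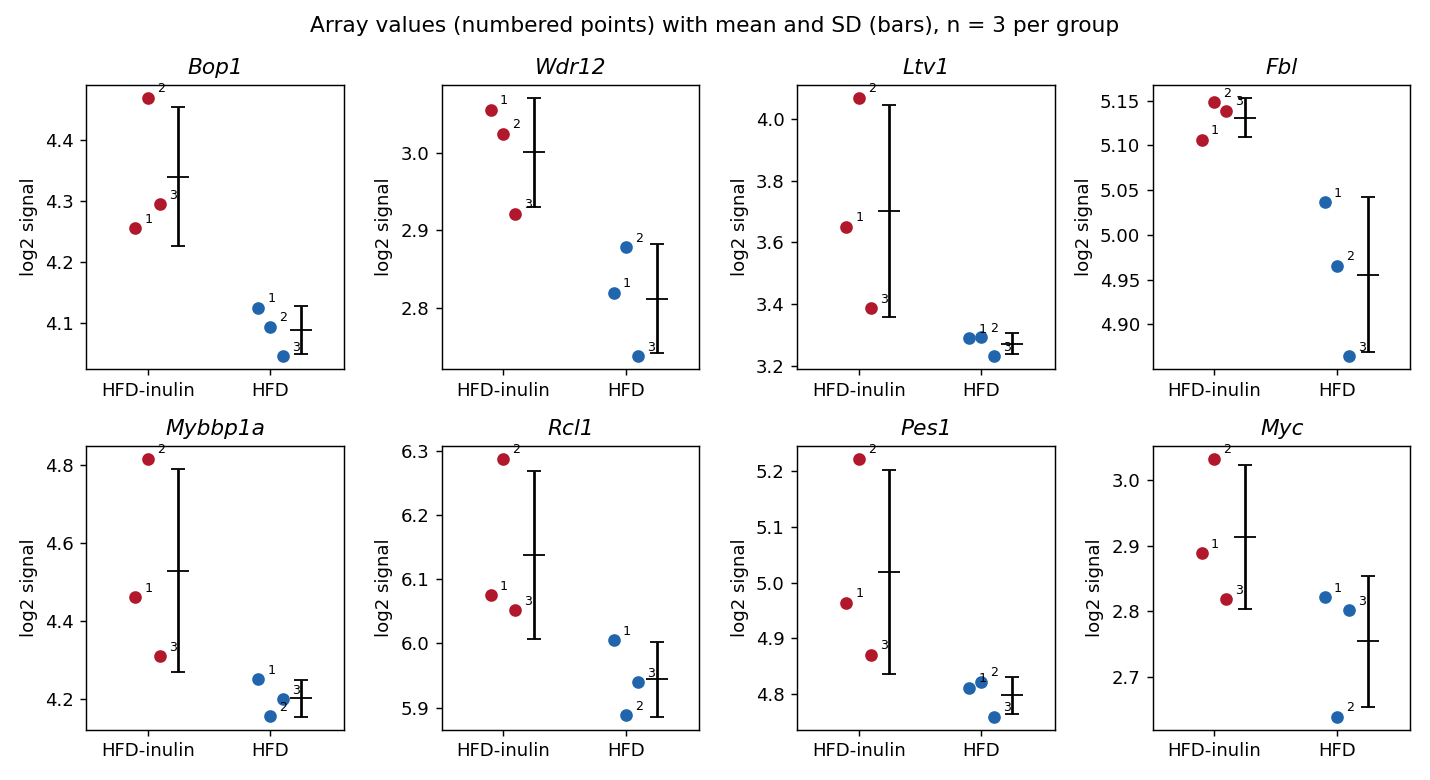
Points are the log2 signals of single arrays, numbered 1 to 3 in each group, and bars are mean and SD (n = 3). For the 7 genes whose groups did not overlap every HFD-inulin point is above every HFD point, while for Myc HFD-inulin array 3 and HFD array 1 both read 2.82. The vertical axes do not start at 0.

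Factors of late small subunit maturation act partly in the cytoplasm. Ltv1, which leaves the pre-ribosome before the small subunit is finished, had the largest difference of all 36. It measured 3.65, 4.07 and 3.39 in HFD-inulin arrays and 3.29, 3.29 and 3.23 in HFD arrays. Array 3 of the HFD-inulin group was nearest to the HFD values, which spanned little. The difference was 0.43 (SE 0.16), a 1.35-fold ratio, with an adjusted p of 0.902 in limma. It was 0.57 in the low trio and 0.13 in the high trio. Tsr1, a relative of translational GTPases that binds the pre-small subunit, measured 4.18, 4.32 and 3.92 in HFD-inulin arrays and 4.06, 3.89 and 3.84 in HFD arrays, and the groups overlapped. Nob1, the endonuclease that makes the last cut of the small subunit rRNA, averaged 3.62 ± 0.11 in HFD-inulin and 3.62 ± 0.02 in HFD livers (SD, n = 3 each), and its arrays overlapped between groups. Its difference was -0.01 (SE 0.07).

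The factors tied to rRNA transcription included Myc. Its signal was 2.89, 3.03 and 2.82 in HFD-inulin arrays and 2.82, 2.64 and 2.80 in HFD arrays. The groups touched, with a difference of 0.16 (SE 0.09, unadjusted p 0.11, adjusted p 0.902 in limma), and it was 0.14 in the low trio and 0.10 in the high trio. Mybbp1a, a nucleolar protein that binds Myb and acts on rRNA synthesis, measured 4.46, 4.82 and 4.31 in HFD-inulin arrays and 4.25, 4.16 and 4.20 in HFD arrays. Its groups were apart, with a difference of 0.33 (SE 0.13), 0.39 in the low trio and 0.13 in the high trio. Ddx21, an RNA helicase of the nucleolus, had 4.94 ± 0.27 in HFD-inulin and 4.78 ± 0.10 in HFD livers and overlapped between groups.

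In the box C/D snoRNP, fibrillarin (Fbl), the methyltransferase of the particle, had closely spaced HFD-inulin values. It measured 5.11, 5.15 and 5.14 in HFD-inulin arrays and 5.04, 4.97 and 4.86 in HFD arrays. All HFD-inulin arrays lay above all HFD arrays. The difference of 0.18 (SE 0.07, unadjusted p 0.0385, adjusted p 0.902 in limma) was larger in the high trio (0.22) than in the low trio (0.09). Nop58, a core protein of the same particle, measured 3.98, 4.69 and 3.76 in HFD-inulin arrays and 3.97, 3.78 and 3.73 in HFD arrays. Its mean difference of 0.32 (SE 0.23) rested on HFD-inulin array 2, and HFD-inulin arrays 1 and 3 lay close to the HFD values. Rrp9, a protein of the U3 snoRNP, differed by 0.04.

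The box H/ACA proteins had the lowest median difference of the roles described, 0.06 over 4 genes. Nhp2, an RNA-binding core protein, measured 3.74, 3.99 and 3.65 in HFD-inulin arrays and 3.53, 3.49 and 3.65 in HFD arrays, and HFD array 3 met HFD-inulin array 3. Its difference was 0.23 (SE 0.10). Nop10, a small protein that binds the catalytic subunit, measured 4.22, 4.21 and 3.98 in HFD-inulin arrays and 4.10, 4.02 and 3.99 in HFD arrays. Dkc1, the pseudouridine synthase itself, and Gar1, another core protein, differed by 0.01 and 0.02, each less than its SE.

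The abundant nucleolar phosphoproteins had differences of 0.06 to 0.20. Nolc1, a chaperone of snoRNPs, measured 3.75, 3.84 and 3.45 in HFD-inulin arrays and 3.57, 3.45 and 3.43 in HFD arrays, and array 3 of the HFD-inulin group lay inside the HFD range. Nucleolin (Ncl), which binds precursor rRNA, measured 5.85, 5.99 and 5.89 in HFD-inulin arrays and 5.89, 5.73 and 5.75 in HFD arrays. Nucleophosmin (Npm1), a scaffold of the nucleolus, differed by 0.06 (SE 0.07).

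All 12 small subunit processome factors had a higher mean in HFD-inulin livers, with a median difference of 0.15 that was 0.16 in the low trio and 0.01 in the high trio. Rcl1, which works with Bms1, was the member whose groups were apart, at 6.07, 6.29 and 6.05 in HFD-inulin arrays and 6.005, 5.89 and 5.94 in HFD arrays (difference 0.19, SE 0.08). The helicase Ddx10 measured 2.76, 2.84 and 2.60 in HFD-inulin arrays and 2.54, 2.60 and 2.48 in HFD arrays, and HFD-inulin array 3 met HFD array 2. Wdr75, the dimmest probe set of the 36, measured 2.64, 2.79 and 2.44 in HFD-inulin arrays and 2.43, 2.48 and 2.37 in HFD arrays.

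Imp3 and Imp4, partners of the U3 snoRNP, are named here because of their values. Imp4 measured 5.56, 5.71 and 5.04 in HFD-inulin arrays and 5.13, 5.13 and 5.05 in HFD arrays. Its difference was 0.50 in the low trio and -0.05 in the high trio. Imp3 measured 5.74, 5.47 and 5.63 in HFD-inulin arrays and 5.63, 5.26 and 5.15 in HFD arrays, and its difference ran the other way, -0.03 in the low trio and 0.42 in the high trio. Heatr1, of the part of the processome that binds the precursor first, differed by 0.25 (SE 0.17), with 0.32 in the low trio and 0.00 in the high trio. The other members, Utp20, Utp4, Utp15, Wdr43, Nop14 and the GTPase Bms1, differed by 0.01 to 0.12.

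**Figure D4:**
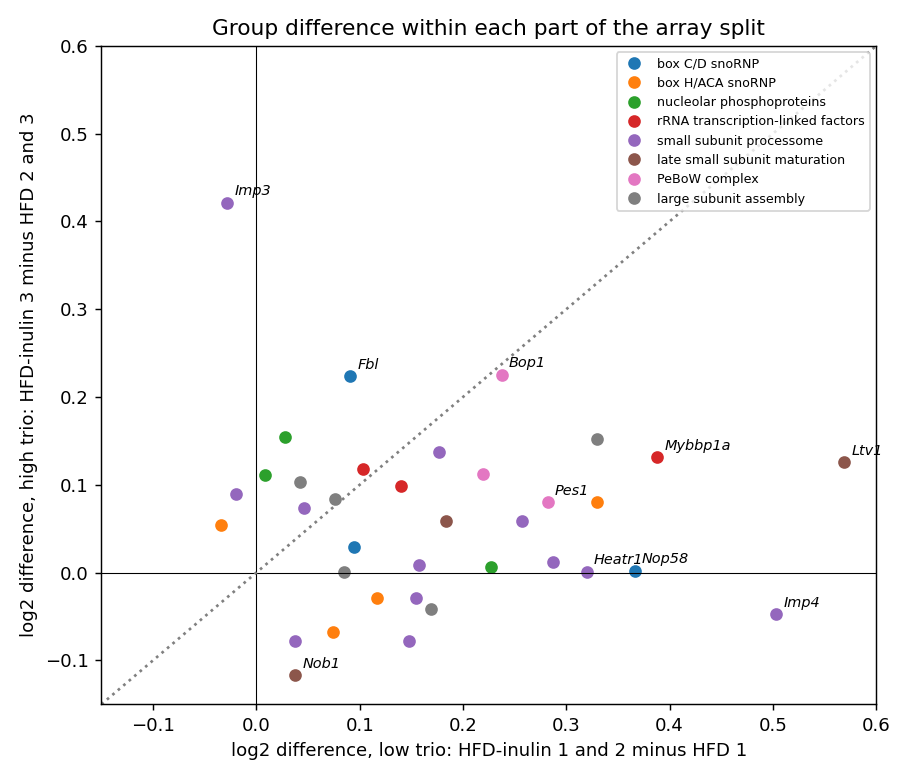
Each point is a gene, with its log2 difference (HFD-inulin minus HFD) in the low trio on the horizontal axis and in the high trio on the vertical axis, and the dotted line marks equality. The low-trio difference was the larger one for 26 of 36 genes.

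Across both trios, 25 of the 36 factors had a positive difference in each, 8 only in the low trio and 3 only in the high trio. The median difference was 0.15 in the low trio and 0.07 in the high trio. A trio leaves 1 array alone in its group, and its spread is taken from the other arrays.

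The large subunit factors outside PeBoW had a median difference of 0.11 over 5 genes. Brix1, which joins the early large subunit precursor, measured 4.57, 4.96 and 4.46 in HFD-inulin arrays and 4.44, 4.48 and 4.13 in HFD arrays, a difference of 0.31 (SE 0.16). HFD array 3 was low and HFD array 2 reached HFD-inulin array 3. Nop16, a nucleolar factor of the large subunit, measured 4.38, 4.23 and 4.22 in HFD-inulin arrays and 4.26, 4.19 and 4.04 in HFD arrays. Nop2, an rRNA methyltransferase, Rrs1, which helps to load the small rRNA of the large subunit, and Rrp1 differed by 0.14, 0.09 and 0.08.

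Genes of the same pathway outside the 39 were taken from 4 lists, of RNA polymerase I, the small subunit, the large subunit and the RNA exosome that trims rRNA. Of their 92 genes 87 were measured, and 80 of the 87 had a higher mean in HFD-inulin livers, with a median difference of 0.11. None passed the adjusted threshold. At an unadjusted p under 0.05 in limma there were 7 of the 87, all higher. Of all probe sets 2.52% met that criterion, and of the 8628 protein-coding genes 4.83%. Groups were apart for 20 of the 87, all higher (23%), against 4.32% of all probe sets and 7.55% of the 8628 protein-coding genes. The median was 0.08 over 11 polymerase I genes, 0.11 over 31 small subunit genes, 0.12 over 34 large subunit genes and 0.15 over 11 exosome genes. Polymerase subunits were represented by Polr1c (0.21), Polr1a (0.12) and Polr1e (0.11). The small subunit genes with the smallest p were Wdr36 (0.23), the kinase gene Riok2 (0.47) and Nol7 (0.32). Riok2 measured 4.23, 4.003 and 3.66 in HFD-inulin arrays and 3.59, 3.44 and 3.44 in HFD arrays. The large subunit genes were Rpf1 (0.31), Mrto4 (0.27) and Las1l (0.21), and Rpf1 had the smallest unadjusted p of these lists (0.00723, adjusted p 0.902 in limma). The helicase Mtrex (0.25) and the exosome subunits Exosc7 (0.14) and Exosc2 (0.18) followed. In these 4 lists HFD-inulin array 2 was again the highest array for 59 of 87 genes (67.8%), and HFD-inulin array 3 for 3 (3.45%). Among the 8628 protein-coding genes those shares were 32.5% and 8.53%.

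The other members of the Myc network lay on both sides of 0. Of 12 genes 5 had a higher mean in HFD-inulin livers, with a median difference of -0.03. Max, the partner Myc needs to bind DNA, measured 3.97, 4.26 and 4.42 in HFD-inulin arrays and 4.56, 4.49 and 4.38 in HFD arrays (difference -0.26, SE 0.12, adjusted p 0.902 in limma). Mxd1, an antagonist that competes for Max, differed by -0.13, and Mlxip, a glucose-responsive relative, by -0.15. Cytosolic ribosomal protein genes encode the proteins that are assembled with rRNA into ribosomes. All 10 measured of 20 listed had a higher mean in HFD-inulin livers, with a median difference of 0.37. Groups were apart for 7, against 4.32% of all probe sets, and the unadjusted p in limma was under 0.05 for 6, against 2.52%. Among the 8628 protein-coding genes those shares were 7.55% and 4.83%. All of these were higher in HFD-inulin livers, and 0 passed the adjusted threshold. The 10 genes share the same 6 arrays, so these counts are not of separate observations. The probe sets of Rpl35 (0.63) and Rpl27 (0.47), the largest differences of the 10, are numbered on other chromosomes than these genes, and without them the median was 0.28 over 8 genes, of which 5 were apart and 4 had an unadjusted p under 0.05. The other probe sets can also read near-identical pseudogenes, so all of these values are uncertain. Over all 10 genes, Rpl35 and Rpl27 included, the mean was 0.37, 0.55 and 0.15 above HFD in HFD-inulin mice 1 to 3. The order of the 3 was that of the biogenesis factors. It was also that of the 8628 protein-coding genes, whose mean deviations were 0.0502, 0.0528 and -0.0188.

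**Figure D5:**
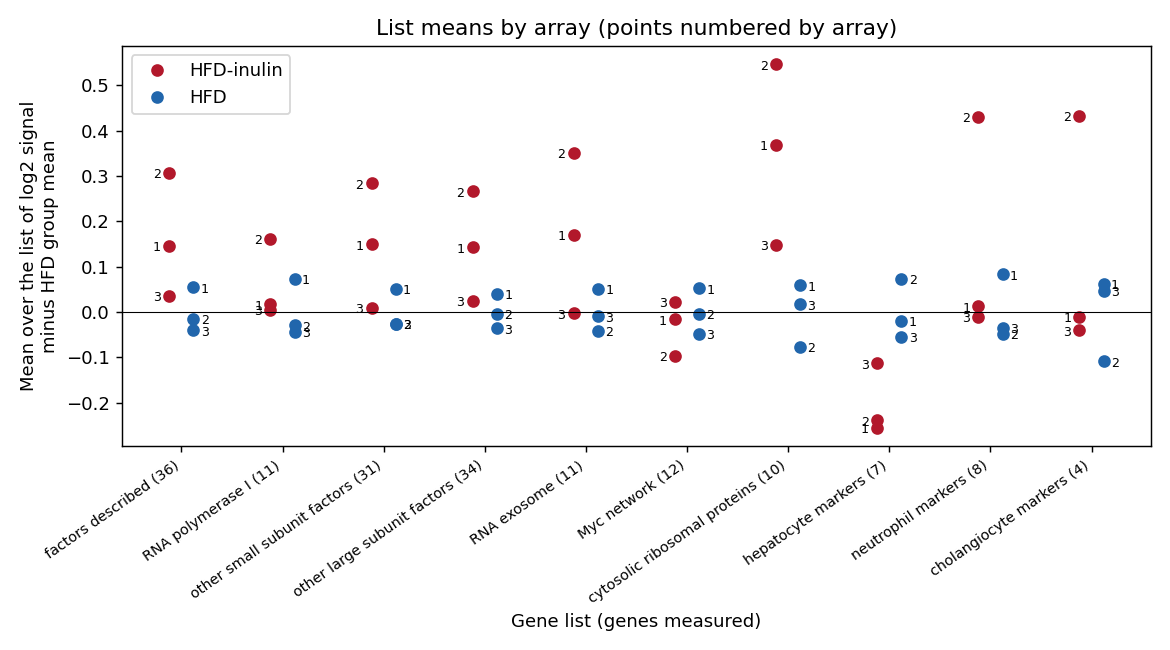
Points are list means of the deviation from the HFD group mean (log2), numbered by array, with HFD-inulin to the left of HFD in each list. HFD-inulin array 2 is the top array in the biogenesis, ribosomal protein, neutrophil and cholangiocyte lists.

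Several factor genes carry small nucleolar RNAs in their introns, and the array measures some of these. The RefSeq table places 19 small nucleolar or guide RNA genes inside 7 of the 39 genes, and 10 of them were measured, although strand was not given for them. Of the 10, 2 had a higher mean in HFD-inulin livers, and the median difference was -0.09. Snord70, inside Nop58, measured 5.77, 5.03 and 4.96 in HFD-inulin arrays and 5.68, 5.32 and 5.27 in HFD arrays, so the array with the highest Nop58 signal was not high for it. Snord82, inside Ncl, measured 6.63, 6.05 and 6.33 in HFD-inulin arrays and 6.65, 6.23 and 6.38 in HFD arrays. Gm26287 inside Nop58 (-0.17), Gm25520 inside Dkc1 (-0.14), Snord92 inside Wdr43 (-0.10) and Snord91a inside Tsr1 (0.10) had the smallest p, and none was under 0.05 without adjustment (smallest adjusted p 0.905 in limma). Gm26287 and Snord91a had signals near the array median. The difference between these RNAs and their hosts was not tested.

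Kupffer cell markers, 8 of 8 measured, deviated by -0.12, -0.20 and -0.07 in HFD-inulin mice, against -0.11, 0.05 and 0.06 in HFD mice. Of the 8, 2 had a higher mean in HFD-inulin livers and 6 a lower one. Groups were apart and lower for 2, where 6.02% of all probe sets were apart in that direction. In no cell type list did all genes differ in the same direction. The neutrophil and cholangiocyte list means were highest on HFD-inulin array 2, the array that was also highest for most factors. Neutrophil markers, 8 of 8 measured, deviated from the HFD mean by 0.01, 0.43 and -0.01 in HFD-inulin mice 1 to 3, against 0.08, -0.05 and -0.03 in HFD mice 1 to 3. Their mean level was low, at 1.35 to 1.79 in HFD-inulin and 1.31 to 1.44 in HFD arrays, and the high mean on HFD-inulin array 2 came from 3 of the 8 genes. These were S100a8, S100a9 and Ltf, at 1.71, 1.05 and 0.80 above the HFD mean there. Ly6g was at 0.09, and Cxcr2, Ngp, Camp and Elane were between -0.17 and -0.01, so that the list median on that array was 0.04. S100a8 measured 2.33 in HFD-inulin array 2 and 0.50 to 0.91 in the other arrays. The cholangiocyte list, of 4 measured genes, was at -0.01, 0.43 and -0.04 in HFD-inulin arrays and 0.06, -0.11 and 0.05 in HFD arrays, and Krt19 measured 3.04 in HFD-inulin array 2 and 1.82 to 1.93 in the others. Hepatocyte markers, 7 of 8 measured, deviated by -0.26, -0.24 and -0.11 in HFD-inulin mice, against -0.02, 0.07 and -0.05 in HFD mice, and 2 of 7 had a higher mean in HFD-inulin livers. Of all probe sets, 2.64% were lower with an unadjusted p under 0.05 in limma, and 6.02% were apart and lower. Among the 8628 protein-coding genes those numbers were 280 and 550. The 2 hepatocyte markers with such a p were lower and had groups apart. Hnf4a, a nuclear receptor of hepatocytes, differed by -0.60, and Cps1, a urea cycle enzyme, by -0.68 (adjusted p 0.390 and 0.902 in limma). Alb, the albumin gene, was at 11.37 to 11.55 in HFD-inulin and 11.55 to 11.58 in HFD arrays. Of the lymphocyte markers, 7 of 8 measured, 1 had a higher mean in HFD-inulin livers and 6 a lower one. Groups were apart and lower for 2, Cd4 and Nkg7, against 6.02% of all probe sets. The signals were low, with gene means from 0.73 to 2.28, and Cd4 (0.97 to 1.12) was below every array median. Of the 7, 5 were lowest on HFD-inulin array 2, and the mean deviation was -0.15 there. Stellate cell markers, 6 of 6 measured, averaged -0.16 on that array, where Reln was at -1.03. Of the sinusoidal endothelial markers, also 6 of 6 measured, 2 had a higher mean in HFD-inulin livers, and Stab2, a scavenger receptor, was apart and lower (difference -0.28, SE 0.08, adjusted p 0.902 in limma). Proliferation genes had a median difference of 0.03 over 7 genes, with 4 of 7 higher in HFD-inulin livers. Those 4 were Mcm2 (0.10, groups apart), Pcna (0.10), Mcm5 (0.06) and Cdk1 (0.03), while Mki67 (-0.23, groups apart), Ccna2 (-0.14) and Top2a (-0.13) were lower. Mki67, a marker of dividing cells, measured 1.03, 0.94 and 1.04 in HFD-inulin arrays and 1.22, 1.06 and 1.42 in HFD arrays. Its HFD-inulin signals were below the array medians, which ran from 1.17 to 1.26. Ccna2 (0.79 to 1.08) and Top2a (0.64 to 0.90) were below these medians on all 6 arrays, and Cdk1 (1.22 to 1.33) was near them. The part of any of these cell types in the factors' differences was not tested.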

How the data were processed

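Total RNA from liver was extracted with TRIzol and labelled with biotin for 1 array per mouse, per the labels. The authors deposited signals that were read here as log2. Per the submitters' processing notes, Expression Console 1.0 (Affymetrix) was used. How probes were summarized, background corrected and filtered, and the build, is not given in the sources used here. Base 2 was inferred from the range. Detection calls and scan dates were not used here.

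Probe sets were named from the platform annotation, with older symbols updated through RefSeq (GRCm38.p6). A single gene was listed for 31258. Another 1492 carried several genes, which left out 3 of the 39 factors. Each of the 36 measured factors had 1 probe set, numbered on its own chromosome. The groups were compared over all 65956 probe sets with limma 3.58.1 in R 4.3.3 (lmFit and eBayes, 6 arrays, no filter, no covariate, two-sided, Benjamini-Hochberg, threshold 0.05). The fit was tested on simulated data with independent noise per array and without the low and high trio of the real arrays. That simulation therefore does not show how the fit behaves on arrays that divide in this way. The factors, the other gene lists and the tests were chosen with earlier results of these data known. Array values are given for Myc, for the 2 genes of each role with the smallest unadjusted p, for those whose groups did not overlap and for the brightest and dimmest probe set (Rcl1 and Wdr75). Up to 3 genes are named per further pathway list and up to 6 small nucleolar RNAs, by unadjusted p. Nob1, Imp3, Imp4, Heatr1 and the cell type and proliferation markers and ribosomal protein genes named were singled out after their values were seen. The low and high trio of arrays were split at the widest gap in the mean of chromosome Y probe sets that share a profile. With 3 arrays per group, precision is limited by their number. Replicate numbers were not read as pairs, since deviations of same-numbered arrays from their group means correlated at 0.261, -0.278 and 0.404.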

Additional observations from a re-analysis of the deposited data

How the results depend on the processing

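Over 17 alternatives 0 factors passed the adjusted threshold, and the count over all probe sets was 0 except for 4 with a trended and robust prior. The median difference of the factors stayed positive in each. It was 0.12 after quantile normalization, 0.19 with arrays centred on their median, 0.11 with the array split as a block, 0.15 within the low trio and 0.07 within the high trio, and 0.16 with the replicate block, with dim probe sets left out and, as an alternative chosen after seeing the data, with the several-gene probe sets of 3 factors (38 of 39 higher). Leaving out each array in turn gave 0.0888 to 0.192 without one of HFD-inulin arrays 1 and 2 or of the HFD arrays and 0.213 without HFD-inulin array 3, with 33 to 35 factors higher. Factors higher at an unadjusted p under 0.05 numbered 5 (2.52% of all probe sets), 6 with the replicate block (2.5%), 3 by ordinary least squares (1.81%), 3 after quantile normalization (2.44%) and 1 of 36 with the array split as a block, where the share of all probe sets was 2.55%, and the cause was not tested. Of 36 factors 23 kept the sign of their difference in every alternative. The other 13 changed sign in at least 1 of them. Within the high trio Nop10 was -0.0285, Gar1 -0.0683, Utp4 -0.0287, Utp15 -0.0782, Nop14 -0.0775, Imp4 -0.0469 and Nop2 -0.0413. Within the low trio Dkc1 was -0.0347, Utp20 -0.0198, Imp3 -0.0285 and Nob1 0.0375. Utp15 was -0.0201 with the array split as a block, Nob1 0.0238 with arrays centred on their median and Npm1 -0.00245 after quantile normalization. Leaving out 1 array at a time, Dkc1 ran from -0.00132 to 0.0362, Gar1 from -0.0627 to 0.0606, Utp15 from -0.0365 to 0.0597, Nob1 from -0.0616 to 0.0488 and Rrs1 from -0.0182 to 0.185.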
